A study of Homo sapiens with 4 samples.

Results

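RNA of the proteasome subunits was measured in a pair of human lung adenocarcinoma lines, CL1-0 and its more invasive subline CL1-5. The members were all genes whose single platform gene symbol is PSMA, PSMB, PSMC or PSMD followed by a number, without the immunoproteasome subunits PSMB8, PSMB9 and PSMB10. This rule gave 31 genes read by 58 probe sets, of 19775 genes read by 41097 probe sets with 1 gene symbol. PSMA6, PSMB11, PSMC5, PSMD7 and PSMD13 were not analysed here.

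The proteasome is the protease that degrades proteins tagged with ubiquitin. Its core particle is a barrel of alpha and beta rings. The alpha rings gate the entry, and within the beta rings PSMB5, PSMB6 and PSMB7 cut the substrate. The regulatory particle sits on the barrel. Its base holds a ring of ATPases, the PSMC subunits, which unfold the substrate and open the gate, and its lid holds the deubiquitinase PSMD14. Cells that meet interferon can exchange the 3 catalytic subunits for PSMB8, PSMB9 and PSMB10.

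RNA came from 4 cultures, and each was read on 1 Affymetrix array. CL1-0 cells carried a control vector or a vector for AK4, a mitochondrial adenylate kinase. CL1-5 cells carried a non-silencing shRNA vector or an AK4 shRNA vector. All 4 cultures were stably transduced and selected with puromycin. Whether a culture was 1 clone or a pool is not given in the sources used here. There was 1 array per group, so replicate errors and p-values could not be had, and precision is limited by how few arrays there were. Each ratio is a difference between a pair of arrays.

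The 4 AK4 probe sets were lower with AK4 shRNA, by log2 ratios of -0.88 to -1.25, but the array labelled AK4 vector was higher for none of them, with ratios between -0.25 and -0.05. Directions drawn from that array thus rest on its label. The labels call the cells alveolar type II cells. Of the 11 markers of these cells with a probe set, 8 to 10 were above the floor on an array. On the scaled signal ETV5 was at 158 to 269 and LPCAT1 at 101 to 361. LAMP3 was at 210 and 160 in CL1-0 but under the floor in CL1-5. The surfactant genes SFTPB and SFTPC were dim, at 22.4 to 38.8, and SLC34A2 was under the floor on all 4 arrays. Leukocyte markers were near the floor, with 1 or 2 of 4 above it. Of the fibroblast markers 2 or 3 of 5 were above it, with COL1A1 at 47.4 to 78.3. Of the endothelial markers 1 or 2 of 4 were, with PECAM1 at 45.1 and 54.0 in CL1-5. The beta-actin signal at the 3' end over that at the 5' end, a measure of RNA quality, was 6.04 and 6.54 on the CL1-0 arrays and 1.34 and 1.61 on the CL1-5 arrays. The same ratio for GAPDH was 1.25 and 1.54 in CL1-0 and 1.04 and 1.07 in CL1-5. The BioB control probe sets had a mean scaled signal of 783 and 307 in CL1-0 and 106 and 99.1 in CL1-5. The part of these array differences in the ratios below was not tested.

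Nearly every subunit was read brightly. The floor, under which signals were treated as not measured, was a scaled signal of 6.94, and 30 of the 31 genes lay above it on all 4 arrays. The exception was PSMA8, an alpha subunit known from the testis, whose signals of 3.13, 3.19, 3.43 and 3.20 were under the floor throughout. All counts below are over the 30 measured genes. Over their chosen probe sets, signals ran from 102 for PSMD5 on the array labelled AK4 vector to 3157 for PSMB3 on the CL1-0 control array. Of the 58 probe sets, 48 were above the floor on all 4 arrays, 5 on some and 5 on none. A gene was read from its brightest probe set.

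**Figure D1:**
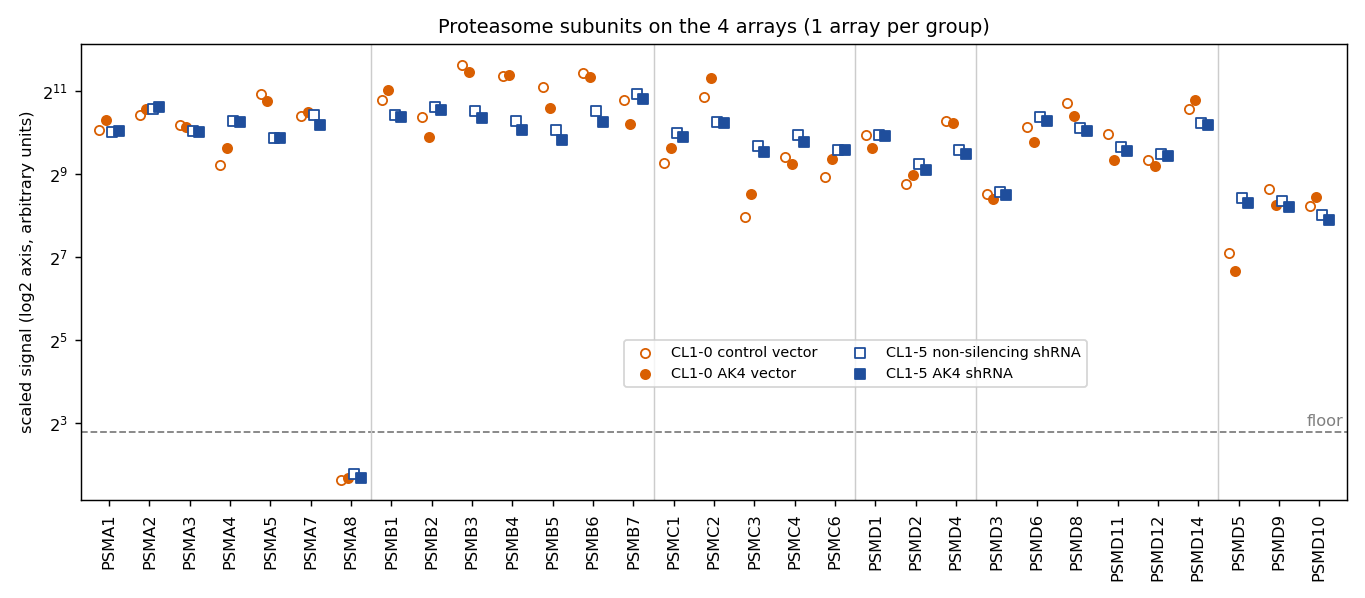
Scaled signal of the chosen probe set of each subunit on the 4 arrays, on a log2 axis, with 1 point per array and vertical lines between subcomplexes (alpha ring, beta ring, ATPase ring, non-ATPase base, lid, assembly chaperones). All genes except PSMA8 lie above the dashed floor of 6.94, and signals of different genes are not comparable because probes bind unequally.

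The first comparison asked how the subunits differ in CL1-0 when AK4 is overexpressed. The subcomplexes differed in direction on the array labelled AK4 vector. The ATPase ring had a median log2 ratio of 0.46, with 4 of 5 genes higher, whereas the lid had a median of -0.23 with 5 of 6 lower and the beta ring one of -0.19 with 5 of 7 lower. None of these ratios reached 2-fold. The lid's median was -0.05 with 4 of 6 lower when a gene's probe sets were averaged, and -0.10 with 3 of 5 lower without probe sets of the suffixes _x_at and _s_at.

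PSMC3, an ATPase of the base, had signals of 250 with control vector and 365 on the array labelled AK4 vector. In CL1-5 they were 821 with non-silencing and 733 with AK4 shRNA. In each pair given below the control array comes first. It was 1.46-fold higher with the vector, a log2 ratio of 0.55, but stayed below both CL1-5 signals. The ATPase PSMC2 was at 1845 and 2545 in CL1-0 and at 1212 and 1202 in CL1-5, with a vector ratio of 0.46. PSMC6 was at 482 and 661 in CL1-0 and at 765 and 756 in CL1-5, also with a ratio of 0.46. PSMC1 was higher too, at 0.35, and PSMC4 was the one ATPase on the other side, at -0.16. The alpha ring leaned the same way, with a median of 0.13 and 4 of 6 genes higher, led by PSMA4 at 0.40.

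The lower genes included catalytic ones. PSMB7, which carries the trypsin-like activity, had signals of 1760 and 1167 in CL1-0 and 1926 and 1795 in CL1-5. On the array labelled AK4 vector it was at 66.3% of the control, a log2 ratio of -0.59, and was the lowest of the 4 arrays. PSMB5, which carries the chymotrypsin-like activity and is the main target of bortezomib, was at 2174 and 1528 in CL1-0 and at 1070 and 901 in CL1-5. Its vector ratio was -0.51, or 70.3% of the control. PSMB6, which carries the caspase-like activity, was at 2734 and 2583 in CL1-0 and at 1450 and 1215 in CL1-5, a vector ratio of -0.08. The 3 catalytic subunits were thus all lower on the array labelled AK4 vector, but by unequal amounts. PSMB6 differed by little, at 94.5% of the control. PSMB2 was at -0.48, PSMB3 at -0.19, PSMB4 at 0.02 and PSMB1 at 0.22. Other probe sets of PSMB4 gave -0.64, at 2901 and 1858, and 0.12, at 642 and 698. A second probe set of PSMB1, at 2128 and 2048, gave -0.055, and dimmer ones of PSMB2 gave -0.74 and 0.19. The directions of these 3 genes are therefore not settled by their probe sets. PSMB4 was at -0.0059 with the values as deposited and at -0.07 with median centring, and it was the one gene of the 30 whose sign differed among the 5 scalings tried.

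PSMD11, a lid subunit, had the lowest ratio. Its brighter probe set was at 1002 and 643 in CL1-0 and at 805 and 754 in CL1-5, a vector ratio of -0.64. Its dimmer probe set, at 35.7, 55.1, 59.2 and 58.9, had a vector ratio of 0.63 and opposed it. The direction of PSMD11 is therefore not settled by these probe sets. In the lid, PSMD6 was at -0.36, PSMD8 at -0.31, PSMD12 at -0.15, PSMD3 at -0.10 and PSMD14 at 0.23. Among the non-ATPase subunits of the base, the scaffold PSMD1 was at -0.30, the scaffold PSMD2 at 0.22 and the ubiquitin receptor PSMD4 at -0.05. The assembly chaperones PSMD5 and PSMD9 were at -0.43 and -0.38, and PSMD10, the chaperone known as gankyrin, at 0.20.

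The counts are read against all 14677 genes measured in this comparison. No subunit was at least 2-fold higher, where 3.22% of all genes were, and none was at least 2-fold lower, where 1.17% were. At 1.5-fold, 0 of 30 were higher against 12.6% of genes and 2 of 30, PSMD11 and PSMB7, were lower against 6.53%. With 30 genes, the counts at 2-fold and the lower count at 1.5-fold lie near the shares of all genes. The higher count at 1.5-fold lies under its share, and this difference was not tested. The subunits' median was -0.07 with 13 of 30 ratios above 0, and the median of all genes was 0.05 with 56.1% above 0. The SD over the subunits was 0.33 and over all genes, dim ones included, 0.47. The share of higher genes among all genes past 2-fold was 73.4%, and 59.0% with median centring. The pooled SD of the ratio between probe sets of 1 gene was 0.41, which is not a replicate error, and 8 of the 30 ratios were larger than it in size, as were 33.7% of all genes. The 5 proliferation genes were all higher on the array labelled AK4 vector, with a summed signal of 1771 against 1011, and their part in these ratios was not tested.

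Several subunits were read by more than 1 probe set, and these did not always concur. In the vector comparison, 13 subunits had 2 or more probe sets measured on both arrays, and all of them lay on the same side of 0 for 6, or 46.2%, where the share over all such genes was 50.9%. PSMC2 was on 1 side with a wide spread, since its dim probe sets had ratios of 0.82 and 2.03 beside 0.46. PSMA2, an alpha subunit, had 0.14 for its bright probe set at 1368 and 1504, and 1.03 for a dim one at 19.1 and 39.0. Averaging a gene's probe sets put PSMC2 at 1.11, the one subunit then past 2-fold. Leaving out probe sets with the suffix _x_at or _s_at, which can bind several transcripts, made PSMA2 the one, at 1.03, and turned PSMD11 to 0.63.

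**Figure D2:**
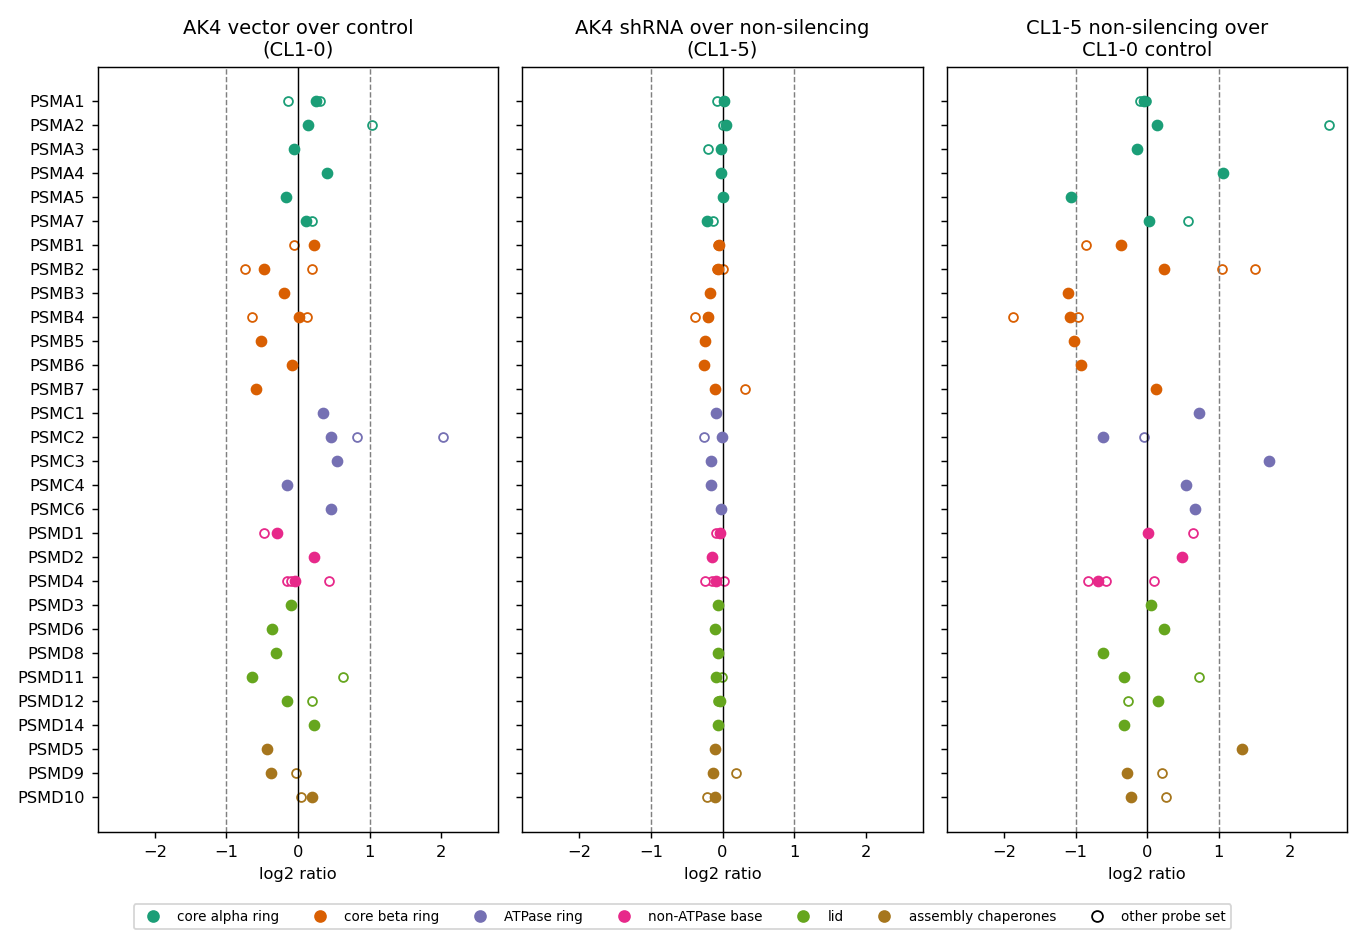
Log2 ratio of each measured subunit in the 3 comparisons, with the chosen probe set as a filled point and its other probe sets measured on both arrays as open points, coloured by subcomplex; dashed lines mark 2-fold. The shRNA ratios crowd just below 0, between -0.26 and 0.05 for the chosen probe sets, and the ratios between the lines run from -1.11 to 1.71.

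The comparison in CL1-5 asked how the subunits differ when AK4 is silenced. Nearly all were slightly lower with AK4 shRNA. Of 30 subunits, 27 had a ratio under 0, with a median log2 ratio of -0.09 and a range from -0.26 to 0.05. Of all 15314 genes measured, 49.7% had a ratio above 0, and their median was close to 0. The beta ring was lowest, with all 7 genes under 0 and a median of -0.18. When probe sets were averaged 6 of 7 were under 0, with PSMB7 at 0.11, and without the suffixes _x_at and _s_at 5 of 6 were. All 5 ATPases (3 with quantile normalization and as deposited, 4 with cyclic loess), all 3 non-ATPase base subunits, all 6 lid subunits and all 3 assembly chaperones were under 0 as well, with medians of -0.10, -0.09, -0.07 and -0.11. The alpha ring was split, with 3 of 6 under 0.

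The lowest ratios were those of PSMB6 and PSMB5, both catalytic. PSMB6, with the signals given above, was at 83.8% of the non-silencing array, a log2 ratio of -0.26. PSMB5 was at 84.2%, or -0.25. PSMB7 was at 93.2%, or -0.10. PSMB4 was read by 3 bright probe sets, which gave -0.20, -0.39 and -0.20 and so lay on 1 side. PSMB3 was at 3157 and 2777 in CL1-0 and at 1465 and 1293 in CL1-5, an shRNA ratio of -0.18. Outside the beta ring the lowest was PSMA7, an alpha subunit, at 1333 and 1443 in CL1-0 and at 1355 and 1163 in CL1-5. Its shRNA ratio was -0.22, and its other probe set gave -0.13. PSMC3 and PSMC4 were both at -0.16, and PSMD2 was at -0.15.

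The subunits above 0 were all of the alpha ring. PSMA2 was at 1507 with non-silencing and 1561 with AK4 shRNA, PSMA1 at 1029 and 1046 (1062 and 1261 in CL1-0) and PSMA5 at 930 and 936. Their ratios were 0.05, 0.02 and 0.01. These are differences of a few percent between a pair of arrays.

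Each of these ratios is small. No subunit was at least 2-fold higher, where 0.0914% of all genes were, and none at least 2-fold lower, where 0.0131% were. None was past 1.5-fold either, against 0.868% of genes higher and 0.542% lower. The pooled SD between probe sets of 1 gene was 0.22 here, and 3 of 30 ratios, those of PSMB6, PSMB5 and PSMA7, exceeded it in size, as did 27.3% of all genes. The SD over the subunits was 0.08, and over all genes, dim ones included, 0.22. The direction was shared more than the size was large, and 25 genes were lower under each of the 5 scalings. PSMC2, PSMC6 and PSMA5 changed sign among the scalings. Under the 8 alternatives the count under 0 was 25 to 28 of 30 or 31, or 18 of 22 when probe sets of those suffixes were left out, and the median lay between -0.10 and -0.07. Probe sets of 1 subunit lay on the same side of 0 for 10 of 15 subunits, or 66.7%, where the share over all such genes was 41.0%. With 1 array per group, a difference of this size between the cultures and one between the hybridisations cannot be told apart.

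**Figure D3:**
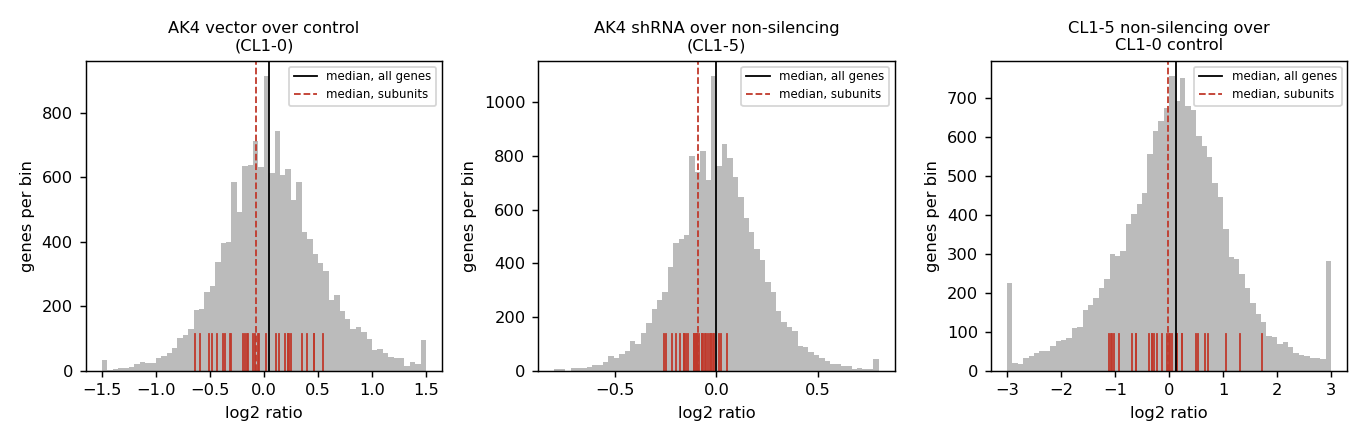
Distribution of the log2 ratio over all measured genes (grey, with ratios beyond the axis placed in the end bins) and the subunits (red ticks) in the 3 comparisons, with both medians as lines; the panels have different axes. In the shRNA panel the subunit median of -0.09 lies below the median of all genes, and the red ticks span a narrow part of the grey distribution.

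Of the 3 immunoproteasome subunits, 2 were higher in CL1-5 with AK4 shRNA. PSMB8 was at 57.3 on the non-silencing array and at 82.7 on the other, higher by 0.53 in log2, and PSMB9 was at 58.1 and 81.4, a ratio of 0.49. Their constitutive counterparts PSMB5 and PSMB6 had ratios of -0.25 and -0.26. PSMB10, the counterpart of PSMB7, was at 69.5 and 62.3, a ratio of -0.16. In CL1-0, PSMB8 was under the floor on both arrays, PSMB9 was higher by 0.57 and PSMB10 by 0.78 on the array labelled AK4 vector. PSME1, a subunit of the interferon-inducible activator that docks on the core, was at 164 and 344 in CL1-0 and at 449 and 548 in CL1-5. It was thus 2.10-fold higher in the former pair, at 1.07 and 0.98 with median centring, and higher by 0.29 in the latter. PSME1 was read in a list of activators and an inhibitor of the proteasome, with 4 genes measured. In the former pair the other 3 were lower, and the list had a median of -0.42. In the latter pair 3 of the 4 were higher, with a median of 0.14.

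The pair of AK4 comparisons share no array, so the subunits' ratios can be set side by side. Of 30 subunits, 16 were lower in both, where 23.6% of the 13735 genes measured in both comparisons were. A further 11 were higher on the vector array but lower on the shRNA array, 1 was the reverse and 2 were higher in both. The first count follows in large part from the shRNA comparison, in which 27 were lower. PSMB5, at -0.51 and -0.25, and PSMB7, at -0.59 and -0.10, were lower in both. PSMC3 was at 0.55 and -0.16. Across the 30 genes, which share both pairs of arrays and are not replicates, Pearson's r was 0.23 and Spearman's rho 0.30.

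**Figure D4:**
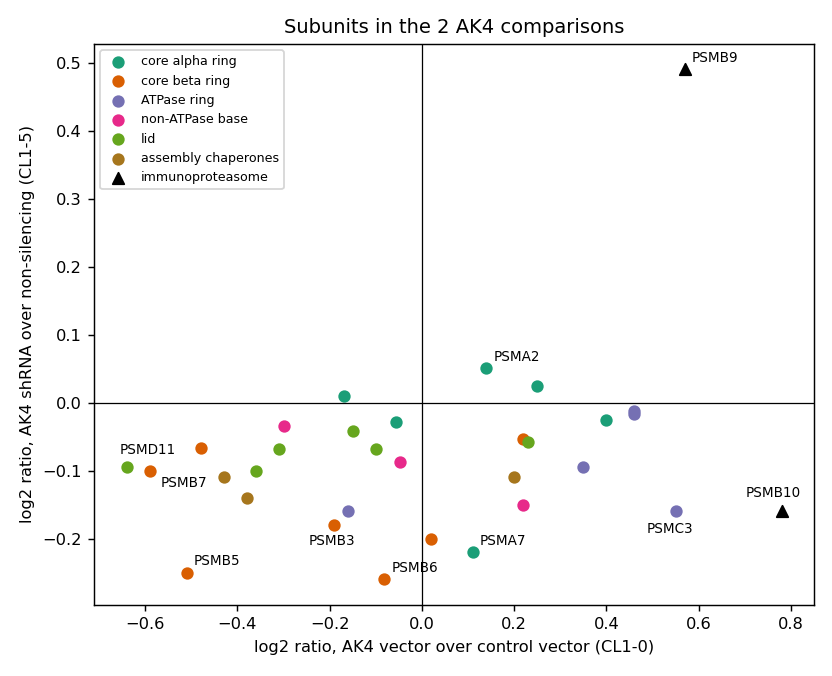
Log2 ratio with AK4 vector in CL1-0 (x axis) against log2 ratio with AK4 shRNA in CL1-5 (y axis) for the 30 measured subunits, coloured by subcomplex, with PSMB9 and PSMB10 as black triangles. Of the subunits, 16 lie at lower left and 11 at lower right, and PSMB9 lies at 0.57 and 0.49.

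Between the control arrays of both lines the subunits differed most of the 3 comparisons, as did all genes, with SDs of 0.71 over the subunits and 1.23 over all genes. The beta ring was lower in CL1-5, with a median log2 ratio of -0.92 and 5 of 7 genes under 0, and the ATPase ring was higher, with a median of 0.67 and 4 of 5 above 0. With other scalings the beta ring was at -1.14 (median centring), -0.52 (quantile), -0.41 (cyclic loess) and -0.04 (as deposited), with 6, 4, 4 and 4 of 7 genes under 0, and the ATPase ring at 0.45, 0.84, 0.98 and 1.54 in the same order. This comparison describes the sublines and shares its arrays with the other 2. Its arrays also differ in vector, a control vector in CL1-0 and a non-silencing shRNA vector in CL1-5. Line and vector therefore cannot be told apart.

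Of the 30 subunits, 4 were at least 2-fold lower in CL1-5, where 14.2% of 15969 genes were, and 3 were at least 2-fold higher, where 17.1% were. At 1.5-fold, 8 were lower and 5 higher, against 23.3% and 30.5% of genes. With 30 genes, the counts at 2-fold and the lower count at 1.5-fold lie near the shares of all genes. The higher count at 1.5-fold lies under its share, and this difference was not tested. The genes at least 2-fold lower were PSMB3, at 46.4% of CL1-0 and a log2 ratio of -1.11, PSMB4 at -1.08, PSMA5 at -1.06 and PSMB5 at -1.02. PSMB6 followed at -0.92. The signal of PSMB4 was 2605 with control vector in CL1-0, 2639 with AK4 vector by label, 1229 with non-silencing and 1071 with AK4 shRNA. That of PSMA5, an alpha subunit, was 1944, 1733, 930 and 936 in the same order. For these 5 genes both CL1-0 arrays were higher than both CL1-5 arrays. The 3 probe sets of PSMB4 concurred, at -1.08, -1.88 and -0.96. PSMA5 was at -0.53 when its probe sets were averaged.

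Higher in CL1-5 were PSMC3, PSMD5 and PSMA4. PSMC3 was 3.28-fold higher, a log2 ratio of 1.71. PSMD5, a chaperone that holds ATPases during assembly of the base, had signals of 137 and 102 in CL1-0 and 342 and 316 in CL1-5, a ratio of 1.32. PSMA4 had 596 and 786 in CL1-0 and 1244 and 1222 in CL1-5, a ratio of 1.06. Both CL1-5 arrays were above both CL1-0 arrays for each of the 3. PSMC3 and PSMA4 were read by 1 probe set each, and the second probe set of PSMD5 was under the floor on all arrays, so that averaging its probe sets puts PSMD5 at 0.66. PSMC1 was at 0.72, PSMC6 at 0.67 and PSMC4 at 0.54, and PSMC2 was the exception in the ring at -0.61.

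The rest of the regulatory particle was mixed. PSMD2 was at 0.49 and PSMD6 at 0.24, whereas PSMD4 was at -0.69, PSMD8 at -0.61, PSMD11 and PSMD14 at -0.32 each and PSMD9 at -0.28. PSMD11 was again split, with 0.73 for its dim probe set. Among the core subunits, PSMB7 was at 0.13, PSMB2 at 0.23 and PSMA2 at 0.14. The dimmer probe sets of PSMB2 gave 1.05 and 1.51, and that of PSMA2 gave 2.54. All probe sets measured on both arrays lay on the same side of 0 for 8 of 13 subunits, or 61.5%, beside 54.6% over all such genes.

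Over all subunits the median was -0.02, with 15 of 30 ratios above 0, and that of all genes was 0.13 with 56.0% above 0. The median of all genes was 0.83 with the values as deposited and between -0.07 and -0.06 with quantile normalization, cyclic loess and median centring. The scalings thus change where 0 lies, and the subunits' median was -0.24 with median centring, 0.21 with quantile normalization, 0.31 with cyclic loess and 0.85 as deposited, with 9, 19, 20 and 25 of 30 ratios above 0. The share of higher genes among all genes past 2-fold was 54.6%, and 42.9%, 42.7%, 41.4% and 90.4% with quantile normalization, cyclic loess, median centring and the values as deposited. The SD over the subunits was 0.71 and over all genes 1.23. The pooled SD between probe sets of 1 gene was 0.85, and 8 of 30 ratios exceeded it in size, as did 38.4% of all genes. The beta-actin ratios given above, 6.04 in CL1-0 with control vector and 1.34 on the CL1-5 non-silencing array, moved with this comparison, and their part in it was not tested. The epithelial markers moved with it too, with a summed signal of 1997, mostly KRT18, on the CL1-5 non-silencing array against 36.9 on the CL1-0 control array. On the former 3 of 5 were above the floor and on the latter 2 of 5, with EPCAM and CDH1 under it on both. On the array labelled AK4 vector these 2 genes were above it, at 9.46 and 9.81. The part of the epithelial markers was not tested either.

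The extremes of the order hinged little on the scaling. Under all 5 scalings PSMA5, PSMB3, PSMB4, PSMB5 and PSMB6 were lower in CL1-5, and PSMA4, PSMB2, PSMC1, PSMC3, PSMC4, PSMC6, PSMD2, PSMD5 and PSMD6 were higher. The other 16 changed sign with the scaling. The ratio of PSMC3 exceeded that of PSMB3 by 2.82 on the log2 scale, and by 2.58 with quantile normalization and 2.56 with cyclic loess. The call of 2-fold lower was less firm, since PSMB3, PSMB4, PSMA5 and PSMB5 were at -0.72, -0.67, -0.71 and -0.66 with quantile normalization and at -0.59, -0.60, -0.63 and -0.58 with cyclic loess. PSMC3 and PSMD5 stayed past 2-fold under all 5 scalings, and PSMA4 fell short with median centring, at 0.84.

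**Figure D5:**
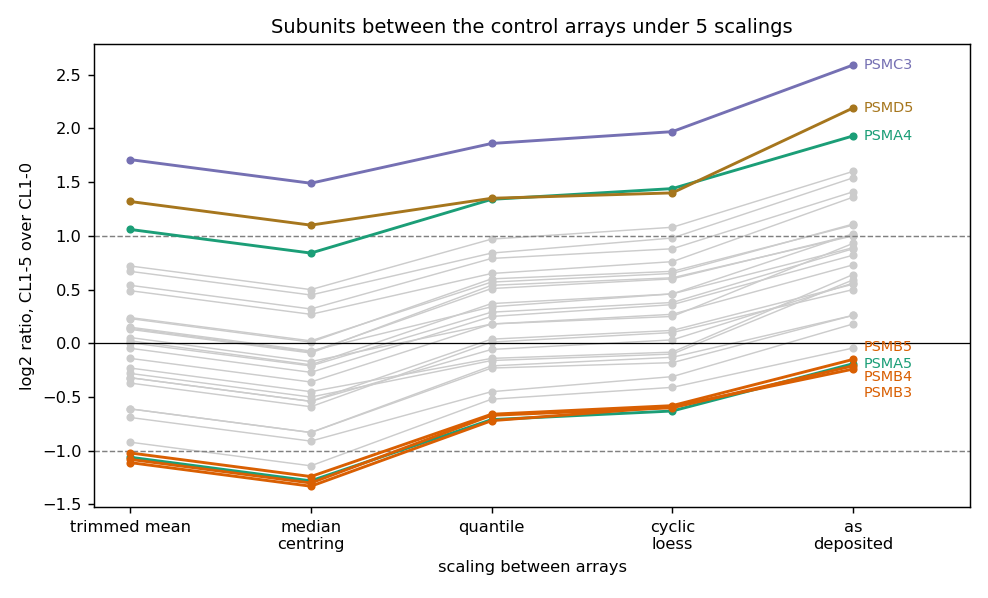
Log2 ratio of CL1-5 non-silencing over CL1-0 control for the 30 subunits (lines) under 5 scalings between arrays, with the 7 genes past 2-fold under the trimmed mean in colour by subcomplex and dashed lines at 2-fold. The lines move up and down together, PSMC3 stays highest, at 1.49 to 2.59, and the 4 lower coloured genes stay under 0.

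The promoters of 4 of these 7 genes are shown because their subunits part between the lines, PSMB3 and PSMA5 lower in CL1-5 and PSMC3 and PSMD5 higher. Each is the 250 bases before the start of the gene in RefSeq, build GRCh38.p14, from 5' to 3' on the gene's strand. Capitals mark TGACNNNGC, the core of the antioxidant response element that factors of the NFE2L1 and NFE2L2 type bind, and CCAAT, the box that NF-Y binds. Both strands were searched.
PSMB3, chr17:38752491-38752740, plus strand: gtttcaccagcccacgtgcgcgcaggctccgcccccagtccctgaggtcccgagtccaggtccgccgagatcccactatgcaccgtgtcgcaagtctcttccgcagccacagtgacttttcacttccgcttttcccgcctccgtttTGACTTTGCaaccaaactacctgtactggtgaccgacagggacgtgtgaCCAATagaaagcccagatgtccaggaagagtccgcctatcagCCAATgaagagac
PSMA5, chr1:109426449-109426698, minus strand: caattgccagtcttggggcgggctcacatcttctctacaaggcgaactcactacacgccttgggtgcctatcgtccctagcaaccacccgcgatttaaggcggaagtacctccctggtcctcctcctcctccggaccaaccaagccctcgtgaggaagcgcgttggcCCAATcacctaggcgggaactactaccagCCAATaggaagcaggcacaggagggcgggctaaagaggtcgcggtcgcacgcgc
PSMC3, chr11:47426440-47426689, minus strand: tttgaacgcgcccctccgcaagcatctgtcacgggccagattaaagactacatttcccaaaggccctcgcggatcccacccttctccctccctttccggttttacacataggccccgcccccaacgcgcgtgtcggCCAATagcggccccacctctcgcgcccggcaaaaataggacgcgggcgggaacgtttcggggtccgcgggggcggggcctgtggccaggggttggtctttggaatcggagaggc
PSMD5, chr9:120842923-120843172, minus strand: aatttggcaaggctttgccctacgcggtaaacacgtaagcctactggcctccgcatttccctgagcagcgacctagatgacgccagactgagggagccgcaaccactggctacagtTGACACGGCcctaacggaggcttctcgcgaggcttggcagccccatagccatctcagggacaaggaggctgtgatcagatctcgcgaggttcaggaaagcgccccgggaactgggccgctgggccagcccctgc

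The window of PSMB3 held TGACNNNGC with its first base 104 bases before the start and CCAAT 55 and 13 bases before it. PSMA5 held CCAAT 83 and 54 bases before its start, PSMC3 held CCAAT 114 bases before and PSMD5 held TGACNNNGC 134 bases before. Genes of both directions thus held either motif. Windows were at hand for 26 of the 31 subunits, 30 windows in all. TGACNNNGC was found in 6 of them, or 20.0%, and in 10.9% of all 35116 windows. CCAAT was found in 13, or 43.3%, and in 32.0% of all windows. The other members with TGACNNNGC were PSMA4, PSMD3, PSMD9 and PSMD12, whose ratios between the lines were 1.06, 0.05, -0.28 and 0.15. A match is a description of letters and not a site of binding.

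Genes around the proteasome were read from lists of 45 genes in 8 groups. In the vector comparison 2 of the 37 measured reached 2-fold upward, against 3.22% of all genes, and 2 downward, against 1.17%. Their median was -0.05, and that of all genes was 0.05. The higher listed genes were PSME1 and PSMG4. PSMG4, a chaperone of core assembly, was 2.01-fold higher, but its log2 ratio was 0.31 over the average of its probe sets, 0.98 as deposited and 0.91 with median centring. The lower ones were in the list of NFE2L1, the factor that drives subunit transcription when the proteasome is inhibited. MAFF, a small partner of such factors, was at 1481 and 472 in CL1-0 and at 246 and 274 in CL1-5, a vector ratio of -1.65. BACH1, a repressor at antioxidant response elements, was at 113 and 53.9 in CL1-0, a ratio of -1.07, or -0.36 when its probe sets were averaged. NFE2L1 itself was at -0.40 and NFE2L2 at -0.39. Of the 7 genes measured in this list, 2 were above 0, up to 0.50, and the list had a median of -0.39. With AK4 shRNA, 0 of 38 were past 2-fold in either direction, where 0.0914% of all genes were higher and 0.0131% lower. Of the 38, 20 were above 0, and the median was 0.01. The largest ratios there were those of PSMB8 and PSMB9. ADRM1, a ubiquitin receptor of the base, was lowest at -0.21.

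Between the lines, 3 of 38 listed genes reached 2-fold upward in CL1-5, against 17.1% of all genes, and 8 downward, against 14.2%. Their median was -0.48, and that of all genes was 0.13. PSMB8 was under the floor on both CL1-0 arrays, at 4.79 and 5.97, so its 8.25-fold higher signal in CL1-5 was taken against the floor. Its log2 ratio was 3.04, but 2.76 with cyclic loess and 1.77 with a floor at the 60th percentile. VCP, of the NFE2L1 list, the segregase that extracts ubiquitylated proteins for the proteasome, was 3.51-fold higher at 1.81, but at 0.50 from a probe set of neither suffix, and PSME1 was higher by 1.45. The lowest were MAFF at -2.59, MAFG at -2.44 and NFE2L2 at -1.89, also of the NFE2L1 list, in which NFE2L1 was at 0.19. That list was split, with a median of -0.0084 and 3 of 7 genes above 0. The shuttle factors UBQLN1, UBQLN2 and RAD23B, which carry ubiquitylated proteins to the proteasome, were at -1.74, -1.54 and -1.27. From probe sets of neither suffix RAD23B was at 0.16 and UBQLN2 at -0.87, and RAD23B was at -0.27 when its probe sets were averaged. SEM1, the smallest lid subunit, was at -1.41 and the deubiquitinase USP14 at -1.06. Of these 8 genes, USP14 was at -0.87 with quantile normalization, USP14 and RAD23B were at -0.78 and -0.91 with cyclic loess, and with the values as deposited SEM1, USP14, RAD23B, UBQLN1 and UBQLN2 were at -0.54, -0.19, -0.40, -0.87 and -0.67. POMP, the chaperone that matures the core, was at -0.92 from its brightest probe set but at 0.16 when its probe sets were averaged. Cell cycle genes were also higher in CL1-5, with a summed signal of 1011 in CL1-0 with control vector and 3994 on the CL1-5 non-silencing array over 5 proliferation genes, and their part in these differences was not tested.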

How the data were processed

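The authors deposited 1 table of intensities on a linear scale, with 54675 probe sets and 4 arrays of 1 colour. The submitters' processing notes name MAS5; version, role and scaling: not given in the sources used here. The deposited columns had medians of 6.07, 6.23, 15.6 and 15.3. The arrays were brought to the same trimmed mean (2% trimmed from either end), leaving out the 62 control probe sets. Signals under 6.94, the 40th percentile over the 4 scaled arrays, were set to that floor, and log2 was taken. Genes above it on 1 or both arrays of a pair counted as measured. Among a gene's single-symbol probe sets, the one brightest on average in log2 stood for it. Symbols were updated through gene identifiers from RefSeq. Python 3.11.15 and limma 3.58.1 (cyclic loess) were used. The steps were checked on simulated data.

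The groups came from the genotype labels. No test was possible. Of the members, the catalytic subunits, those past 2-fold, the 3 highest and 3 lowest of each comparison and those with split probe sets are given in full. Listed genes are named where past 2-fold, or the largest 2 of a comparison, and PSMB10, NFE2L1, NFE2L2 in CL1-0, ADRM1 and POMP were added after their values were seen. The members and lists were chosen with earlier results of these data known. The alternatives were 4 scalings, another floor, no floor with a pseudocount of 1, 2 rules for probe sets and a fold of 1.5.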

Additional observations from a re-analysis of the deposited data

How the results depend on the processing

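No paired analysis was possible because each group was 1 array, and no array could be left out. For the subunits given in full, 24 values moved by more than the pooled SD between probe sets of 1 gene, most of them between the lines with the values as deposited, and 0 past 2-fold changed sign. The other subunits are not in that count, and between the lines as deposited they moved as far (PSMD4 from -0.69 to 0.18); without the suffixes _x_at and _s_at, PSMB2 and PSMD4 moved to 0.19 and 0.43 in CL1-0. With the values as deposited, the median between the lines was 0.85, with 12 subunits at least 2-fold higher, 0 at least 2-fold lower and 5 under 0. Quantile normalization and cyclic loess each left 0 at least 2-fold lower. When probe sets with the suffix _x_at or _s_at were left out, 9 of 22 were under 0 between the lines, and in CL1-0 11 of 22 were under 0 and 1 was at least 2-fold higher. The mean of all probe sets also gave 1 at least 2-fold higher in CL1-0. At 1.5-fold, 2 were lower in CL1-0, and between the lines 5 were higher and 8 lower. The median of the subunits lay between -0.16 and -0.007 in CL1-0. The cause of these changes was not tested. Without probe sets of those suffixes fewer subunits were read, 22 in place of 30. The brightest probe set of each of the 30 measured subunits lay above the floor on all arrays. Some of their other probe sets were near the floor or under it. Others that opposed the brightest one in CL1-0 were well above it, such as that of PSMD11 at 35.7 to 59.2.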
